A study of Homo sapiens with 6 samples.

Results

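The clustered histone genes are the genes of the HIST1, HIST2, HIST3 and HIST4 clusters, here all table rows whose symbol begins with HIST1H, HIST2H, HIST3H or HIST4H and does not end in PS and a number. There were 92 such rows among 62016 genes, and they carried 76 different symbols. The other 16 rows were second copies of HIST1 and HIST2 genes on patch scaffolds of the genome, all listed at 0 in the 4 group values used, so the 76 rows on chromosomes are described. They were 6 H1, 17 H2A, 23 H2B, 15 H3 and 15 H4 genes, 55 of them in HIST1 on chromosome 6, 16 in HIST2 and 4 in HIST3 on chromosome 1, and HIST4H4 on chromosome 12. Of these, 6 are annotated as pseudogenes in GENCODE (HIST2H2BA, HIST2H2BB, HIST2H2BC, HIST2H2BD, HIST2H3DP1 and HIST3H2BA), but the naming rule keeps them.

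RNA was sequenced from Kasumi-1 cells, a human acute myeloblastic leukemia line with the AML1-ETO fusion, 4 days after infection with PLKO viruses that expressed JMJD1C shRNA63, JMJD1C shRNA95 or a control shRNA. There were 6 libraries, 2 per group. JMJD1C belongs to the KDM3 proteins, which have a JmjC domain, and the hairpins ask what its depletion does to RNA levels. The authors also deposited a comparison of AML1-ETO shRNA with a control shRNA, made from 1 library each of another series. The labels do not say whether the 2 libraries of a group are separate cultures, so p-values may measure technical spread only. All groups are 1 cell line infected in bulk, so fewer cells of a kind and less RNA per cell cannot be told apart.

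Histone proteins form the spool on which DNA is wound: H2A, H2B, H3 and H4 make up the nucleosome core, and H1 binds the linker DNA between nucleosomes. The clustered genes are transcribed mainly in S phase, when new DNA needs new nucleosomes, and their mRNAs end in a conserved stem-loop bound by SLBP in place of a poly(A) tail. Some of them can also make longer, polyadenylated mRNAs, which have been described in cells that leave the cycle and differentiate. Many H2B promoters and the H2A promoters they face share an octamer element bound by OCT1, the product of POU2F1, beside CCAAT and TATA boxes. The total RNA libraries followed standard Illumina protocols per the labels, and no source used here says whether polyadenylated RNA was selected.

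Levels are FPKM (fragments mapped to a gene, scaled to its length and to the depth), 1 value per group as the authors combined the libraries, and log2 fold changes are shRNA over control. The error after a log2 fold change is its size divided by the authors' test statistic. A gene was called where the authors' Cuffdiff q-value was under 0.05, and it was measured where the higher group reached 1 FPKM. JMJD1C itself stood at 13.7 FPKM with shRNA63 against 30.4 FPKM in the control, or 45.1%, and was called in the authors' deposited table (q = 0.00214). With shRNA95 it had 25.1 FPKM against 29.4 FPKM in the control, or 85.3%, without a call in the authors' deposited table (q = 0.938), so directions given for shRNA95 rest on its label. The depth per library is unknown. The commonest ratio among untested genes would, if it marks equal reads, put the shRNA63 group at 0.79 and the shRNA95 group at 0.71 times the depth of the control. The myeloblast genes KIT, CD34, ELANE, AZU1 and CD33 were present in every group, from 19.2 to 3745 FPKM, and several moved: ELANE, a granule protease gene, had 3745 FPKM with shRNA63 against 1143 FPKM in the control, and KIT had 133.8 against 245.2 FPKM, both called in the authors' deposited table (q = 0.00214). The part of such shifts in the histone values was not tested. MPO was listed at 0 with the status HIDATA, which marks a locus with too many fragments to be fitted. Among genes of other cell types, EPCAM had 13.9 FPKM with shRNA63 against 14.4 FPKM in the control. CD3D had 2.45 against 8.52 FPKM there, and CD79A 0.948 against 2.33 FPKM. With shRNA95 EPCAM had 16.3 against 14.0 FPKM, CD3D 1.59 against 8.26 FPKM and CD79A 2.11 against 2.26 FPKM. The others read, HBB among them, were under 1 FPKM in every group.

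Clustered histone genes were low in all groups. In the control set against shRNA63, 10 members reached 1 FPKM, where the median of 14475 measured and tested genes was 14.0 FPKM. HIST1H2BK, an H2B gene, led with 16.05 FPKM with shRNA63 against 8.69 FPKM in the control, and its control value lay above 39.8% of measured genes. The next were the H2B gene HIST1H2BH with 2.04 FPKM with shRNA63 against 2.89 FPKM in the control and the H2A gene HIST2H2AC with 1.33 against 2.36 FPKM. The linker histone gene HIST1H1C had 1.57 FPKM with shRNA63 against 1.99 FPKM in the control. The highest H3 and H4 genes in that control were HIST1H3B, with 0.474 FPKM with shRNA63 against 1.04 FPKM, and HIST1H4L, with 0.409 against 1.16 FPKM. Replacement histone genes lie outside the clusters, and most of their mRNAs end in poly(A). The 2 with the highest control level are given for scale: H2AFZ had 878.2 FPKM with shRNA63 against 1001 FPKM in the control, and H3F3B had 874.5 against 822.4 FPKM.

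Of the 76 members, 12 were listed at 0 in all 4 group values while 17 were measured with shRNA63 or its control and 24 with shRNA95 or its control. Only 7 and 6 of these reached 1 FPKM in both groups, while 7 and 15 reached it through the shRNA group alone and 3 and 3 through the control alone. The measured members are therefore partly chosen by direction, and counts are given over all tested members. Which members were tested also depends on level, so direction can have a part there too. HIST1H2AB, HIST1H2AJ, HIST1H3G, HIST1H4B, HIST1H4J and HIST2H3DP1 were tested with shRNA95 but not with shRNA63, and all were positive with shRNA95. HIST1H1D, HIST1H3E and HIST2H2BB were tested with shRNA63 but not with shRNA95, and all had negative log2 fold changes with shRNA95. Among measured genes of any kind, 2.49% were called higher and 3.25% lower with shRNA63, and 3.06% higher and 1.98% lower with shRNA95. Closest to the limit in the shRNA63 table were HIST1H3H, just inside with 1.01 FPKM in its higher group, and HIST1H2AE, just outside with 0.959 FPKM. In the shRNA95 table they were HIST1H3B with 1.005 FPKM and HIST1H3G with 0.985 FPKM. Copies that cannot be told apart by reads also matter here. By the longest open reading frame of their GENCODE transcripts, 8 members are identical to another member, the pairs HIST1H4J and HIST1H4K, HIST2H2AA3 and HIST2H2AA4, HIST2H3A and HIST2H3C, and HIST2H4A and HIST2H4B. Of these 8, 5 were listed at 0 in every group, and the highest of the others was 0.542 FPKM, so their levels are uncertain. Where a member of the same core type and reading frame length existed, the closest was identical at a median of 90.1% of bases.

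**Figure D1:**
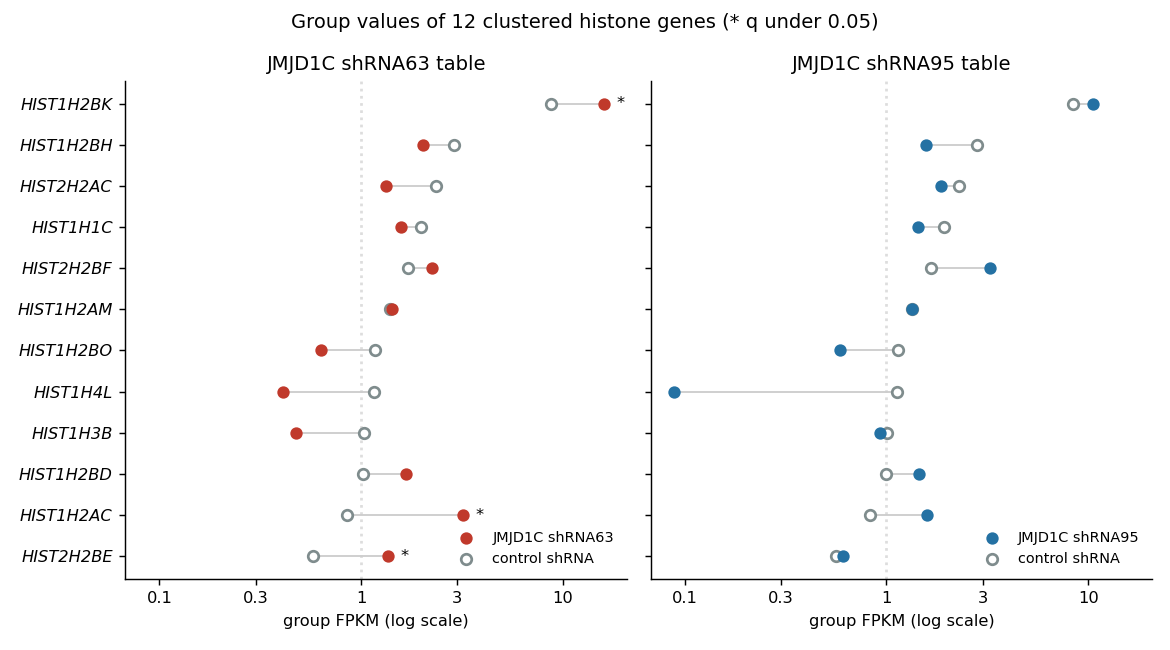
Group FPKM (log scale) of the 12 members named by rule, 1 row per gene, with the JMJD1C shRNA63 table at the left and the JMJD1C shRNA95 table at the right; filled points are the shRNA groups, open points the control, stars q under 0.05 and the dotted line 1 FPKM. HIST1H2BK stands apart at 16.05 FPKM with shRNA63 against 8.69 FPKM in the control, and most others lie within a few FPKM of the dotted line.

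With shRNA63, 3 clustered histone genes were higher and none was lower by the authors' Cuffdiff test. They were the H2A gene HIST1H2AC and the H2B genes HIST1H2BK and HIST2H2BE, each at the smallest q in the authors' deposited table (q = 0.00214). HIST1H2AC had 3.20 FPKM with shRNA63 against 0.856 FPKM in the control, given in the authors' deposited table as 1.90 (error 0.52) on the log2 scale. HIST2H2BE had 1.37 FPKM with shRNA63 against 0.578 FPKM in the control, given in the authors' deposited table as 1.24 (error 0.29) on the log2 scale. HIST1H2BK had 16.05 FPKM with shRNA63 against 8.69 FPKM in the control, given in the authors' deposited table as 0.88 (error 0.29) on the log2 scale. HIST1H2AC and HIST2H2BE were under 1 FPKM in the control and count as measured only through the shRNA63 group. The calls were 3 of 41 tested members, or 7.32%, where 2.29% of 18271 tested genes were called higher and 2.83% lower. At an unadjusted p under 0.05 the higher members were 5, with HIST1H2AG and HIST2H2AA3 in addition (6.77% of tested genes), and the lower ones were 2, HIST1H2AE and HIST1H2BM (6.67%).

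In hg19 coordinates of the authors' table, with the start counted from 1, HIST1H2AC lies on chromosome 6 from 26124373 to 26139336, HIST1H2BK on chromosome 6 from 27106073 to 27114619 and HIST2H2BE on chromosome 1 from 149856010 to 149858232. These spans are much longer than a histone coding sequence of 381 or 393 bases. The HIST1H2BK span is shared with HIST1H4I, an H4 gene with 0.144 FPKM with shRNA63 against 0.383 FPKM in the control, so reads of either could be counted for the other. HIST1H2AC and HIST2H2BE overlap no other gene of the table. All 3 belong to a group of 5 members known to make polyadenylated transcripts too, with HIST1H1C and HIST1H2BD, a group written down with these calls already known. Of the other 2 members of that group, HIST1H2BD had 1.68 FPKM with shRNA63 against 1.03 FPKM in the control, given in the authors' deposited table as 0.71 (error 0.53, q = 0.449) on the log2 scale. HIST1H1C stood at -0.34 (error 0.31, q = 0.795) on that scale in the authors' deposited table.

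The promoters of the 3 called genes are shown with that of HIST1H2BH, the H2B gene with the highest control level among those not called, to compare their elements. Each is the 250 bases before the RefSeq start in GRCh38.p14, 5′ to 3′ on the gene's strand, and capitals mark the octamer ATTTGCAT, the CCAAT box CCAAT and the TATA motif TATAAA, each on either strand. They lie at chr6:26123922-26124171 on the plus strand for HIST1H2AC, chr6:27146859-27147108 on the minus strand for HIST1H2BK, chr1:149886683-149886932 on the minus strand for HIST2H2BE and chr6:26251364-26251613 on the plus strand for HIST1H2BH, and neighbouring motifs can overlap, as TATAAA does with its reverse complement in HIST1H2BK.
HIST1H2AC: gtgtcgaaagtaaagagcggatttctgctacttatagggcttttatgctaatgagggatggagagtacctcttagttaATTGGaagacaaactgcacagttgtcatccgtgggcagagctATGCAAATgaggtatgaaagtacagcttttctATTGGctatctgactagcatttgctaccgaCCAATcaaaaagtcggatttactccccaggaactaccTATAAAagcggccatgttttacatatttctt
HIST1H2BK: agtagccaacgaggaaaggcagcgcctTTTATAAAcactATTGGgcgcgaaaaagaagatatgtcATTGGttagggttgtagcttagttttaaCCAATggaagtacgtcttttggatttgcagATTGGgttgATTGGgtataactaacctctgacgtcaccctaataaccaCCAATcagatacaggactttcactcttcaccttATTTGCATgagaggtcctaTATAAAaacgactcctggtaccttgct
HIST2H2BE: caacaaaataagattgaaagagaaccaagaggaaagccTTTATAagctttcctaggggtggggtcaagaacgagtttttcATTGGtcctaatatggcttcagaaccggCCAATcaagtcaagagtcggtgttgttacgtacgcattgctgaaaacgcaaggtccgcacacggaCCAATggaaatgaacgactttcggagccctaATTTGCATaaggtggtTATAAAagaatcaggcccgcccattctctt
HIST1H2BH: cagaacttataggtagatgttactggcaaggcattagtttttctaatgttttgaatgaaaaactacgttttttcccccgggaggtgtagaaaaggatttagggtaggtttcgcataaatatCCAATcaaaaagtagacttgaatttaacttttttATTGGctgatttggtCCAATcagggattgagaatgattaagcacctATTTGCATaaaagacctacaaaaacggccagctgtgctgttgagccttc

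All 4 promoters hold the octamer and at least 3 CCAAT boxes, and HIST1H2BH alone of the 4 has no TATAAA in this window. The octamer begins 46 bases before the start in HIST1H2BK and HIST2H2BE, 49 bases before it in HIST1H2BH and 130 bases before it in HIST1H2AC. Among 64 members with a promoter in the RefSeq table at their own start, 11 of 16 H2A and 14 of 18 H2B promoters held the octamer, against 0 of 11 H3, 0 of 13 H4 and 0 of 6 H1 promoters. The windows of genes that face each other can overlap, so 1 octamer can count for both genes. That of HIST1H2AC is also the one found 123 bases before the start of HIST1H2BC, which was not called. Of all 27305 promoters of the same length, 1.66% held it. A CCAAT box was found in all 16 H2A, 18 H2B, 11 H3 and 6 H1 promoters but in 3 of 13 H4 promoters (33.0% of all promoters), and the TATA motif in 43 of 64 members (11.1% of all promoters). The called genes all hold the octamer, but so do others that were not called. Of 16 tested H2A and H2B genes with it, 8 had positive and 8 negative log2 fold changes with shRNA63 in the authors' deposited table. Their median was -0.16. Of 5 tested H2A and H2B genes without it, 4 were positive and 1 negative, with a median of 0.71 and no call.

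The transcript models differ at their 3′ ends. The histone stem-loop, 16 bases long, was found in GENCODE transcripts of 35 of 76 members and in 0.0547% of all 206694 transcripts, and for many members the transcript model stops at the coding sequence, before it. It is printed here, stem arms in capitals, because HIST1H2AC, HIST2H2BE and HIST1H2BH hold the same one.
HIST1H2AC: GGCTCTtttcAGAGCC
The longest transcript with it runs on for 1128 bases beyond the stem-loop in HIST1H2AC, 1729 bases in HIST2H2BE and 1640 bases in HIST1H2BH. For HIST1H2BK the model of that release has 381 bases and holds no stem-loop. Members were also divided by the span of their locus, a split chosen after the values were seen and given with no test. A long span need not mean a long gene, because genes that overlap can be listed with the same locus. HIST2H2AC and HIST2H2AB share a span of 13866 bases, while the HIST2H2AC transcript model has 390. With shRNA63, of 16 tested members with a span over 1000 bases, 10 had positive log2 fold changes, with a median of 0.28 in the authors' deposited table. Of 25 tested members with shorter spans, 6 had positive ones, with a median of -0.67. Over all tested genes that median was 0.020. With shRNA95 the classes lay close together. The median was 0.55 for the longer spans, with 15 of 17 positive, and 0.49 for the shorter ones, with 17 of 27 positive.

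Many clustered H2A and H2B genes stand in divergent pairs that share the DNA between their starts, and each called gene has such a partner. HIST1H2BC, which faces HIST1H2AC across 219 bases in GRCh38, had 1.06 FPKM with shRNA63 against 0.915 FPKM in the control, given in the authors' deposited table as 0.22 (error 0.54) on the log2 scale. HIST1H2AH, which faces HIST1H2BK across 331 bases, had 0.358 FPKM with shRNA63 against 0.567 FPKM in the control, given in the authors' deposited table as -0.67 (error 0.58) on the log2 scale. HIST2H2AC, which faces HIST2H2BE across 323 bases, is listed in the authors' deposited table at -0.84 (error 1.01) on the log2 scale and shares its locus with HIST2H2AB and BOLA1. None of these partners was called. With shRNA95, HIST1H2BC had 1.19 FPKM against 0.887 FPKM in the control and HIST1H2AH had 1.202 against 0.550 FPKM, again without a call. Differences within a pair were not tested.

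**Figure D2:**
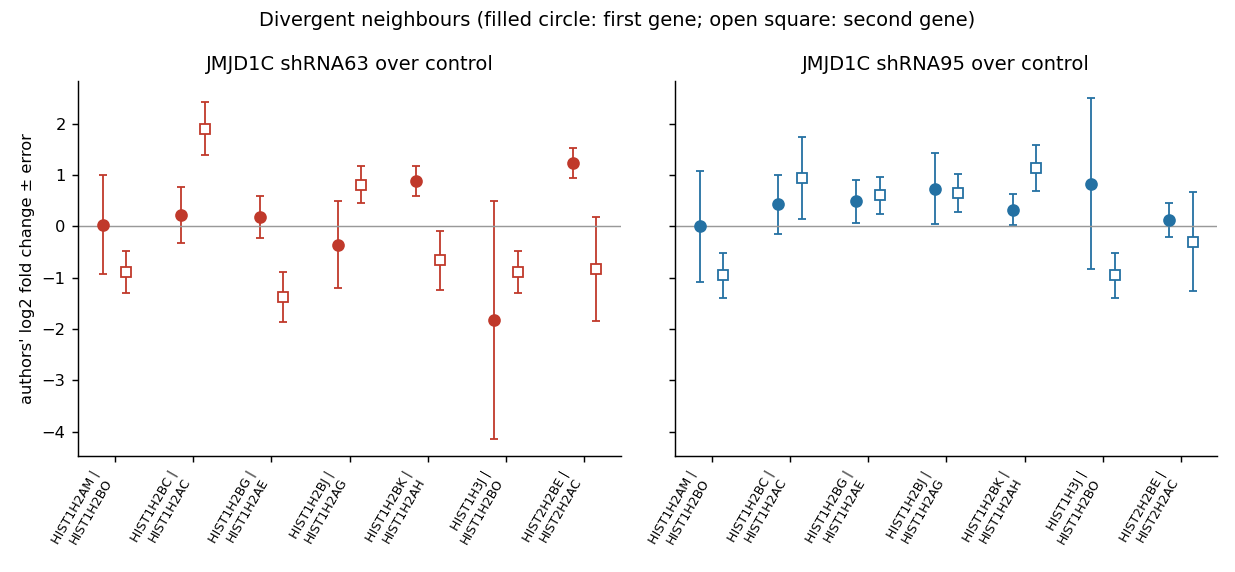
Authors' log2 fold changes with their errors (bars) for divergent gene pairs in which both genes were tested with shRNA63, the minus-strand gene of each pair as a filled circle and the plus-strand gene as an open square, shRNA63 at the left and shRNA95 at the right. With shRNA63 HIST1H2AC stands at 1.90 beside HIST1H2BC at 0.22, and HIST2H2BE at 1.24 beside HIST2H2AC at -0.84.

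By core type, H3 and H4 genes had mostly negative log2 fold changes with shRNA63. Of 8 tested H3 genes 6 were negative, with a median of -1.05, and of 6 tested H4 genes 5 were negative, with a median of -0.84, in the authors' deposited table. Of the 3 measured H3 genes, HIST1H3E (1.75) and HIST1H3H (0.44) were positive and HIST1H3B (-1.13) negative. Of the 2 measured H4 genes, HIST1H4H (0.35) was positive and HIST1H4L (-1.50) negative. The 3 positive ones were measured only through the shRNA63 group. The other tested H3 and H4 genes, all under 1 FPKM in both groups, were negative. All 4 tested H1 genes were negative, with a median of -0.47. For the 9 tested H2A genes the median was 0.035 and for the 14 tested H2B genes 0.20, with 8 of them positive. None of these H1, H3 and H4 genes was called. Over the 41 tested members 25 were negative, or 61.0%, where 47.9% of all tested genes were. The median of the members was -0.34, against 0.020 for all genes, and members ranged from -2.64 to 2.54. Summed over members, H2B genes came to 30.3 FPKM with shRNA63 against 22.2 FPKM in the control, and H2A genes to 9.63 against 8.61 FPKM. H3 genes summed to 4.49 FPKM with shRNA63 against 5.84 FPKM in the control, and H4 genes to 3.87 against 5.64 FPKM. HIST1H2BK alone made up 31.4% of the summed FPKM of all members with shRNA63 and 18.8% in the control. Without it, all members summed to 35.0 FPKM with shRNA63 against 37.4 FPKM in the control. Within the H2A sums, HIST1H2AC had 3.20 FPKM with shRNA63 against 0.856 FPKM in the control.

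Single H3 and H4 genes at these levels could lack a call though their log2 fold change lay more than 2 errors from 0. Their deposited p-values were weaker than the errors alone would give. By the authors' Cuffdiff test with shRNA63, the unadjusted p was 0.0563 for HIST1H3B and 0.149 for HIST1H4L. HIST1H3B, which encodes a canonical H3, had 0.474 FPKM with shRNA63 against 1.04 FPKM in the control, given in the authors' deposited table as -1.13 (error 0.46, q = 0.397) on the log2 scale. HIST1H4L had -1.50 (error 0.50, q = 0.653) and the H2B gene HIST1H2BO -0.89 (error 0.41, q = 0.507) in the authors' deposited table. The H2A gene HIST1H2AM, which shares its locus with HIST1H3J, had 1.42 FPKM with shRNA63 against 1.39 FPKM in the control, given in the authors' deposited table as 0.035 (error 0.96) on the log2 scale. The median error over the 41 tested members was 0.58, so a change of 1 on the log2 scale was within 2 errors for a typical member.

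In the libraries labelled shRNA95 no clustered histone gene was called in either direction among 44 tested members by the authors' Cuffdiff test, where 2.59% of 18006 tested genes were called higher and 1.82% lower. At an unadjusted p under 0.05, 5 were higher, HIST1H2AG, HIST1H3F, HIST1H3G, HIST1H3H and HIST2H2BF (7.15% of tested genes), and HIST1H2BH was lower (5.1%). HIST1H2BK had 10.5 FPKM with shRNA95 against 8.43 FPKM in the control, given in the authors' deposited table as 0.32 (error 0.30, q = 0.665) on the log2 scale. HIST1H2AC had 1.60 FPKM with shRNA95 against 0.830 FPKM in the control, given in the authors' deposited table as 0.94 (error 0.79, q = 0.628) on the log2 scale. HIST2H2BE had 0.608 FPKM with shRNA95 against 0.560 FPKM in the control, given in the authors' deposited table as 0.12 (error 0.33, q = 0.998) on the log2 scale. HIST2H2AC had 1.86 FPKM with shRNA95 against 2.29 FPKM in the control, HIST1H1C 1.44 against 1.93 FPKM and HIST1H2BD 1.46 against 0.996 FPKM, none of them called. HIST1H2BO had 0.588 FPKM with shRNA95 against 1.14 FPKM in the control and HIST1H3B 0.933 against 1.005 FPKM, also without a call, while HIST1H2AM had 1.34 FPKM in both groups.

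HIST2H2BF, an H2B gene of the HIST2 cluster, had 3.26 FPKM with shRNA95 against 1.66 FPKM in the control, given in the authors' deposited table as 0.98 (error 0.55, q = 0.148) on the log2 scale. It had 2.24 FPKM with shRNA63 against 1.71 FPKM in the control, given in the authors' deposited table as 0.39 (error 0.66, q = 0.941) on the log2 scale. Its locus overlaps FCGR1A, which encodes the Fc receptor CD64 of monocytes and neutrophils. FCGR1A had 8.25 FPKM with shRNA95 against 2.30 FPKM in the control, given in the authors' deposited table as 1.85 (error 0.34, q = 0.00216) on the log2 scale, and 3.90 FPKM with shRNA63 against 2.37 FPKM in the control. Its part in the HIST2H2BF values was not tested. HIST1H2BH had 1.57 FPKM with shRNA95 against 2.80 FPKM in the control, given in the authors' deposited table as -0.84 (error 0.29, q = 0.303) on the log2 scale. HIST1H4L had the lowest log2 fold change of the tested members, -3.67 (error 1.12), at 0.0881 FPKM with shRNA95 against 1.12 FPKM in the control, without a call in the authors' deposited table (q = 0.837).

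The sign of most tested members in the libraries labelled shRNA95 was positive. The counts include members not tested with shRNA63, all of them positive, and leave out HIST1H1D, HIST1H3E and HIST2H2BB, which were negative but not tested here. Of 44 tested members 32 were positive, or 72.7%, where 53.8% of all tested genes were, and the median was 0.51 against 0.036 for all genes in the authors' deposited table. Of 9 tested H3 genes 6 were positive with a median of 0.83, and of 8 tested H4 genes 7 were positive with a median of 0.60. These include HIST1H3G, HIST1H4B, HIST1H4J and the pseudogene HIST2H3DP1 (1.57, error 2.32), none of them tested with shRNA63. The H3 and H4 medians of the hairpins therefore cover different genes. H2A genes had a median of 0.87, with 9 of 11 positive, and H2B genes 0.37, with 9 of 13 positive. The 3 tested H1 genes had a median of -0.11. Summed over members, H3 genes came to 8.63 FPKM with shRNA95 against 5.66 FPKM in the control, and H4 genes to 7.09 against 5.46 FPKM. H2B genes summed to 25.2 FPKM with shRNA95 against 21.5 FPKM in the control, and H2A genes to 11.4 against 8.34 FPKM. HIST1H2BK made up 18.9% of the summed FPKM in both groups of this table.

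**Figure D3:**
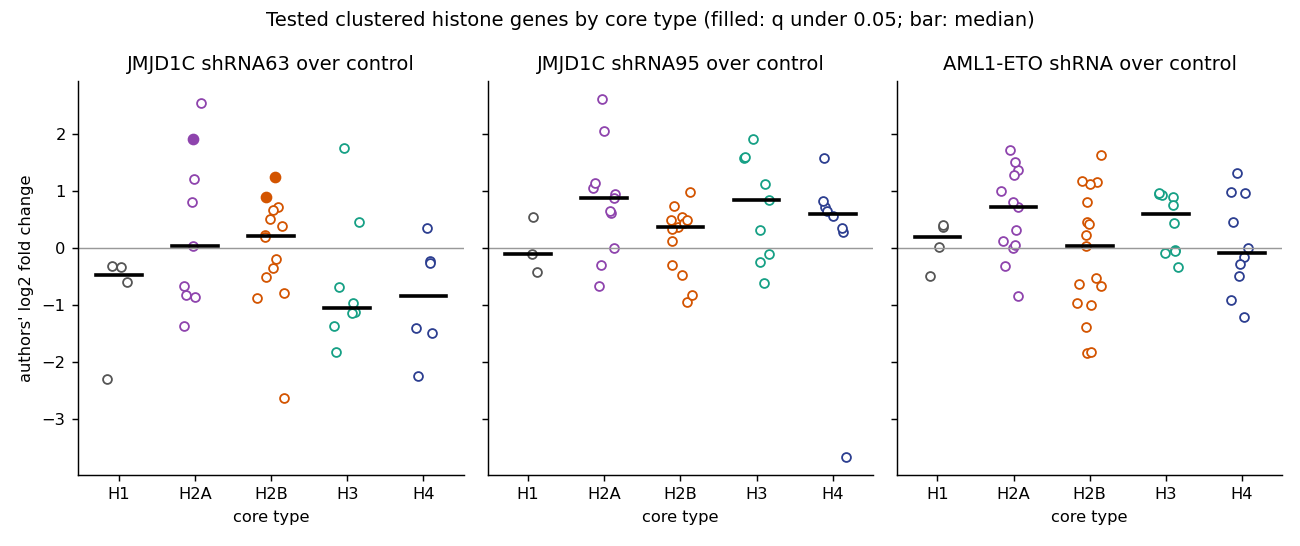
Authors' log2 fold changes of tested members by core type for JMJD1C shRNA63, JMJD1C shRNA95 and AML1-ETO shRNA, each over its control; 1 point per gene, filled where q was under 0.05, with a bar at the median. The H3 and H4 medians lie at -1.05 and -0.84 with shRNA63 and at 0.83 and 0.60 with shRNA95, and the only filled points are HIST1H2AC, HIST1H2BK and HIST2H2BE. The tested genes differ between panels, so these medians do not cover the same genes.

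The hairpins were set against each other through the difference of their log2 fold changes, shRNA63 minus shRNA95. Of 38 members with an error in both tables none passed the test of the difference after adjustment over 17267 genes, where 0.255% of genes were higher and 0.585% lower with shRNA63. The smallest adjusted p of a member was 0.109, for HIST1H2AE, from a two-sided normal test adjusted by Benjamini-Hochberg. At an unadjusted p under 0.05, HIST2H2BE was higher with shRNA63 than with shRNA95 (1.74% of genes), with a difference of 1.12 (95% interval 0.26 to 1.99). Lower at that level were HIST1H2AE, HIST1H2AH, HIST1H3F and HIST1H4A (3.06% of genes), with differences from -1.79 to -2.54. HIST1H2AE had 0.370 FPKM with shRNA63 against 0.959 FPKM in its control, and 1.41 FPKM with shRNA95 against 0.929 FPKM in its control. HIST1H3F had 0.337 FPKM with shRNA63 against 0.544 FPKM, and 1.59 FPKM with shRNA95 against 0.527 FPKM. The control libraries are shared, and errors taken as independent can then be too wide. The variance owed to the controls is not known. As an assumed allowance for it, the product of both errors was subtracted from the summed squared errors of every gene. Under that assumption these 5 genes passed, 1 higher and 4 lower, where 1.19% of all genes were higher and 2.21% lower. For HIST1H2BK the difference was 0.56 (95% interval -0.26 to 1.39) and for HIST1H2AC 0.96 (95% interval -0.90 to 2.82).

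All 7 H3 genes in that test had a difference below 0, with a median of -1.12, and so had 5 of 6 H4 genes, with a median of -0.94. The H3 gene HIST1H3E went the other way but was not in that test, because it was not tested with shRNA95. It had 1.05 FPKM with shRNA63 against 0.313 FPKM in the control, and 0.104 FPKM with shRNA95 against 0.303 FPKM in the control. H2A and H2B genes were divided, with 4 of 9 and 6 of 13 below 0 and medians of 0.034 and 0.067. Over all 38 members 63.2% lay below 0, against 52.5% of all genes in the test, and the medians were -0.44 and -0.027. HIST1H4L was the H4 gene above 0, with a difference of 2.17 (95% interval -0.24 to 4.58).

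**Figure D4:**
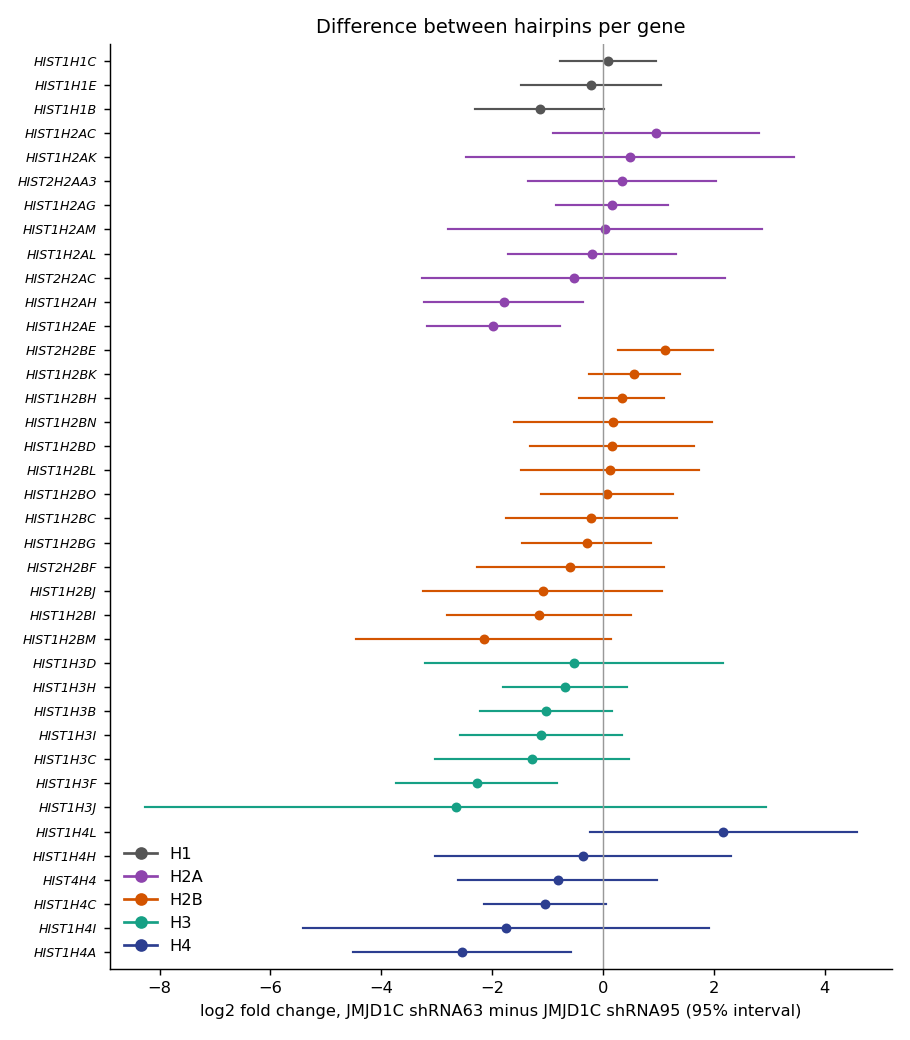
Difference of the authors' log2 fold changes, JMJD1C shRNA63 minus JMJD1C shRNA95, for 38 members with the 95% interval as a line, ordered and coloured by core type. All 7 H3 points lie left of 0, and the intervals of HIST2H2BE, HIST1H2AE, HIST1H2AH, HIST1H3F and HIST1H4A do not reach it. The H3 gene HIST1H3E, not tested with shRNA95 and opposite in direction, is not shown.

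In the AML1-ETO comparison, which has 1 library per group and so no replicate check, none of 54 tested members was called in the authors' deposited table by Cuffdiff, where 0.223% of 22406 tested genes were called higher and 0.187% lower. This test compares those libraries, not the conditions. HIST1H2AC had the highest log2 fold change of the tested members in the authors' deposited table, 1.72 (error 0.81, unadjusted p = 0.0338, q = 0.650), and was the only higher member under 0.05 (3.46% of tested genes). HIST1H2BH had the lowest of the tested members, -1.84 (error 0.51, unadjusted p = 0.0353, q = 0.667), in the authors' deposited table, the only lower one (3.2%). In the authors' deposited table HIST2H2BE stood at 1.16 (error 0.55) and HIST1H2BK at 0.42 (error 0.74). Of the 54 tested members 32 were positive, with a median of 0.27, where the median of all 21727 tested genes with a finite value was -0.014 in the authors' deposited table. H2A genes had a median of 0.71 and H4 genes -0.087 in the authors' deposited table.

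Genes of S phase, chosen as a list with earlier results known, were read beside the clusters. With shRNA63, 19 of 20 S phase genes had negative log2 fold changes, where 47.9% of all tested genes had, with a median of -0.43 against 0.020 for all, and UHRF1, a reader of hemimethylated DNA, was called lower, at 23.2 FPKM against 41.7 FPKM in the control in the authors' deposited table (q = 0.00214). The replication helicase genes MCM4 and MCM7 were at -0.48 (error 0.34) and -0.50 (error 0.36), TYMS, the thymidylate synthase gene, at -0.16 (error 0.35), and PCNA, the polymerase clamp gene, at -0.26 (error 0.24) in the authors' deposited table, all without a call. At an unadjusted p under 0.05, 9 of these 20 were lower, where 6.67% of all tested genes were, and 2.83% of all were called lower. With shRNA95 15 of 20 were negative (46.2% of all tested genes) with a median of -0.065 and none was called by the authors' Cuffdiff test, with 2 lower at an unadjusted p under 0.05 (5.1% of all). In the AML1-ETO table the median was -0.47 in the authors' deposited table, with no call. The part of S phase genes in the histone values was not tested.

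Factors of histone transcription and 3′ end processing were also read. Of 23 such genes none was called with shRNA63, and the median was -0.092 against 0.020 for all tested genes. At an unadjusted p under 0.05, 2 were lower with shRNA63, where 6.67% of all tested genes were. With shRNA95 LSM10, a subunit of the U7 particle that cuts histone mRNAs, was called higher in the authors' deposited table (q = 0.0403). It had 46.2 FPKM against 31.1 FPKM in the control. LSM10 was the only call of the 23 with shRNA95, where 2.59% of all tested genes were called higher and 1.82% lower. The list median with shRNA95 was -0.090. SLBP, which binds the stem-loop, had 77.1 FPKM with shRNA63 against 93.0 FPKM in the control and 85.4 FPKM with shRNA95 against 90.2 FPKM in the control, log2 fold changes of -0.27 (error 0.28) and -0.079 (error 0.29) in the authors' deposited tables. SRRT, which links capped RNA to 3′ processing, had 128.8 FPKM with shRNA63 against 145.5 FPKM in the control, the exonuclease gene XRN2 78.7 against 83.6 FPKM and the transcription factor gene YY1 86.8 against 79.6 FPKM, none of them called. Of 22 histone chaperone genes none was called with either hairpin by the authors' Cuffdiff test. At an unadjusted p under 0.05, 1 was lower with shRNA63 (6.67% of all tested genes) and 0 with shRNA95 (5.1%). The chaperone medians were -0.25 with shRNA63, with 20 of 22 negative (47.9% of all tested genes), and -0.069 with shRNA95. The nucleolar chaperone gene NPM1 had 4232 FPKM with shRNA63 against 4742 FPKM in the control, NAP1L1, an H2A-H2B chaperone gene, 694.3 against 814.7 FPKM, RBBP4 337.5 against 426.0 FPKM and RBBP7 292.1 against 364.9 FPKM. The 1 lower gene at the unadjusted level, named after its value was seen, was NASP, a chaperone of H1 and H3, with 250.7 FPKM with shRNA63 against 337.9 FPKM in the control in the authors' deposited table (q = 0.323).

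Of 10 measured replacement histone genes none was called with shRNA63. At an unadjusted p under 0.05, 1 was lower (6.67% of all tested genes), H1FX, a linker variant gene named after its value was seen. H2AFY, the macroH2A gene, had 612.0 FPKM with shRNA63 against 758.4 FPKM in the control, and H3F3A, an H3.3 gene, 198.6 against 212.7 FPKM. With shRNA95 the H2A variant gene H2AFJ was called higher at 23.7 FPKM against 13.6 FPKM in the control, given in the authors' deposited table as 0.80 (error 0.30, q = 0.00728) on the log2 scale. With shRNA63 H2AFJ had 14.3 FPKM against 14.0 FPKM in the control. H2AFJ was the only call of the list with shRNA95, where 2.59% of all tested genes were called higher and 1.82% lower. H2AFZ, the gene of H2A.Z, had 1374 FPKM with shRNA95 against 970.7 FPKM in the control, given in the authors' deposited table as 0.50 (error 0.20, q = 0.140) on the log2 scale. The list medians were -0.036 with shRNA63 and -0.0051 with shRNA95.

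**Figure D5:**
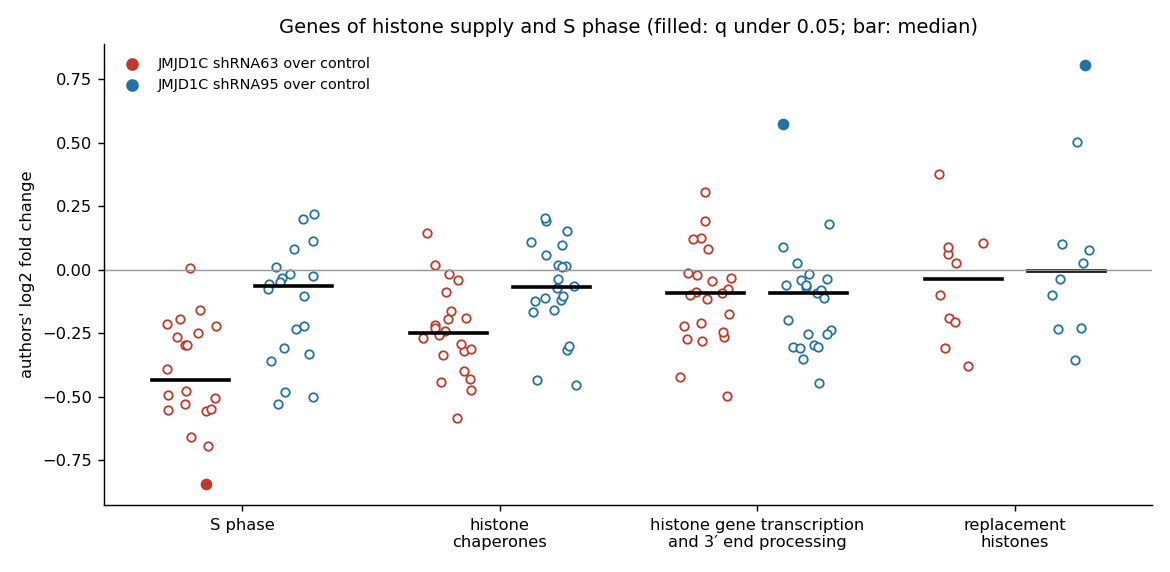
Authors' log2 fold changes of measured genes in 4 lists of histone supply and S phase, JMJD1C shRNA63 at the left and JMJD1C shRNA95 at the right of each pair; filled points had q under 0.05 and bars are medians. The S phase median is -0.43 with shRNA63 and -0.065 with shRNA95, and the filled points are UHRF1, LSM10 and H2AFJ.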

How the data were processed

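Gene comparison tables were used as deposited. Per the submitters' processing notes, TopHat2 2.0.8b, Cuffdiff 2.1.1 and hg19 were used, with no role or order given. The authors' FPKM is 1 value per group, scaled per table (the same controls had a median ratio of 1.03 between tables), so levels were compared within a table. The log2 fold change, the test statistic (a score), the p-value and the q-value are the authors' deposited values. The 2 group value columns of the AML1-ETO table are of another series and were not used, so its members had no filter on level. The deposited p corresponds to a normal deviate that is, at the median over all genes, 1.42 times the statistic. At that median, errors from the statistic are the wider reading. For some low members they were the narrower one: HIST1H4L with shRNA63 had a statistic of -2.99 and p = 0.149 by the authors' Cuffdiff test. Intervals of such members may be too narrow. With errors scaled to the deposited p, the adjusted p of the normal test between hairpins rose from 0.109 to 0.198 for HIST1H2AE. It fell from 0.456 to 0.0698 for HIST2H2BE.

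Members and lists were chosen with earlier results of these data known. Named members were those called, the 10 highest in the control and the highest of each core type; list genes were those called and the 4 highest in the control. Strandedness and annotation are not stated in the labels. Errors under the 10th percentile were raised to it for the hairpin difference, which was tested on simulated data. Locus starts were raised by 1: end minus start equalled the GENCODE v29 gene length for 20229 genes. Of 76 members, all matched GENCODE symbols and 64 a RefSeq promoter, by symbol or synonym and by a start on the same strand within 1000 bases of the GENCODE gene. Python 3.11.15, pandas 2.3.3, scipy 1.17.1 and matplotlib 3.10.9 were used. Alternatives were other q thresholds, level filters, pseudocounts, centring, loci that overlap no other gene, and other errors.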

Additional observations from a re-analysis of the deposited data

How the results depend on the processing

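The tables hold 1 value per group, so leaving out a library was not possible and was not run. No paired analysis was possible because the columns carry no replicate number. The 3 higher calls with shRNA63 and the absence of calls elsewhere held at q thresholds of 0.01 and 0.10. With at least 5 FPKM in the higher group only HIST1H2BK remained, so the count was 1 and the median 0.81; without genes whose locus overlaps another, the count was 2. The median log2 ratio of the 17 measured members with shRNA63, with 1 FPKM added to each value, was 0.18; with no minimum level it was -0.16, a reversal made by members below 1 FPKM entering. With shRNA95 the corresponding median was 0.29, and from 0.11 to 0.49 over the alternatives. With the assumed control part subtracted from the errors, 1 member was higher and 4 were lower with shRNA63 than with shRNA95, against 0 and 0. Under that assumption 1.19% and 2.21% of all genes passed in these directions. With errors scaled to the deposited p the counts stayed at 0. Of 48 recomputed log2 fold changes of named members, 41 stayed within their error, and 7 moved by more, each with 1 FPKM added to low values. Levels near 1 FPKM limit what these libraries can show for single members.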
